A study of Mus musculus with 8 samples.

Results

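Nucleolar ribosome assembly genes encode the proteins that transcribe, modify, cut and fold ribosomal RNA (rRNA) in the nucleolus. The 43 genes described here were chosen by that function, with earlier results of these data known. Of the 43, 42 were measured, among 10720 genes tested. A gene was represented by the probe set that carries its name alone, is not at 0 on every array and has the highest mean over the arrays. Mrto4, a large-subunit assembly factor, was left out because its probe set also carries the names of pseudogenes. RNA came from LSK cells of mouse bone marrow, the lineage-negative, Sca-1-positive, Kit-positive fraction that holds blood stem cells and early progenitors, and was hybridised to 8 Affymetrix arrays. 4 arrays carry the genotype WT (control 1 to 4, normal mice) and 4 the genotype Msi2KO (KO 1 to KO 4, conditional Msi2 knockout mice, which lose Musashi-2, a protein that binds RNA). The age of the mice and the Cre that deletes Msi2 are not given in the sources used here. Signals are deposited log2 values.

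Ribosome assembly starts when RNA polymerase I transcribes the ribosomal DNA repeats. Small nucleolar ribonucleoproteins (snoRNPs) then modify the transcript, the box C/D class by ribose methylation and the box H/ACA class by pseudouridylation. Separate sets of helicases, nucleases and scaffold proteins build the small and the large subunit. The programme is known to follow growth signals and the transcription factor MYC, and it differs between resting and dividing blood progenitors.

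KO 3 stood apart from the other 7 arrays, and the main results below are given with and without it. It lay at 50.5 on the first principal component, which held 32.4% of the variance, against -26.7 to 10.99 for the others. Msi2 itself read 11.65, 11.40, 11.48 and 11.62 in controls 1 to 4 and 11.36, 11.20, 8.73 and 10.38 on KO 1 to KO 4. All KO arrays were below all controls, KO 1 and KO 2 by little (88.7% and 79.0% of the control mean, where controls ran from 90.7%), KO 4 at 44.8% and KO 3 the lowest. The difference was -1.12 ± 0.50 (SE, n = 4 each, limma adjusted p 0.442), and the sources used here do not place the probe set against the deleted stretch. Msi2 had 5 measured probe sets, and only the brightest of them is given here. On KO 3 the actin control probe sets differed most between the 3' and the 5' end, by 0.29 against -0.12 to 0.13 elsewhere, and KO 3 had the lowest bioB spike-in mean, 9.75 against 10.08 to 10.48. Its Gapdh difference of 1.70 lay within the 1.35 to 1.85 of the others. Xist was below 8 on control 1, KO 1 and KO 2 and above it on the other 5 arrays, so the sexes were unevenly spread. Of the genes of the LSK gate and of stem cells, 8 of 10 were measured, and Kit read 8.70 in controls and 9.04 in KO. The other 7 were lower in KO, with a median of -0.42 over the 8 genes that was -0.029 without KO 3. Ly6a, which encodes Sca-1, was not analysed here. Markers of T and B cells were mostly listed at 0, among them Cd3e, Cd3d, Cd4, Cd8a, Cd79a and Ms4a1.

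MYC with its partner MAX is known to bind the E-box CACGTG, which reads the same on both strands, so the promoters were searched for these letters. RefSeq promoter windows on GRCm38.p6, each from 250 bases before to 50 after a gene's start, matched 38 of the 43 genes. The motif was present in a window of 6 of the 38 (15.8%), in 17 of 77 other ribosome assembly genes (22.1%) and in 8.09% of all 27025 genes with a window. All 6 matches are shown with their flanks, to let the letters be read beside the values of their genes. They were chosen after those values were seen. The motif is in capitals.
Imp4: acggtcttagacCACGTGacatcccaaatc
Nop2: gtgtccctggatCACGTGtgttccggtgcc
Pes1: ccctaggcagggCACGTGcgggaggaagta
Tsr1: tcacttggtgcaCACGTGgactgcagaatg
Utp20: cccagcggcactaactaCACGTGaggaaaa
Wdr43: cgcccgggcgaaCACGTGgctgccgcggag

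The motif lay before the start in Imp4 (by 121 bases; stretch chr1:34439696-34439725, plus strand) and in Nop2 (by 60 bases; chr6:125131811-125131840, plus strand). It began after the start at base 3 in Pes1 (chr11:3963965-3963994, plus strand), 18 in Wdr43 (chr17:71616220-71616249, plus strand), 25 in Tsr1 (chr11:74898092-74898121, plus strand) and 38 in Utp20 (chr10:88826765-88826794, minus strand). The 6 genes with the motif had a median difference between KO and control of 0.19 and a median of 0.63 above the control mean on KO 3. For the 31 measured genes whose windows lack it these medians were 0.074 and 0.60. Without KO 3 the differences of the 6 genes were 0.091 (Imp4), 0.31 (Nop2), 0.014 (Pes1), -0.057 (Tsr1), 0.37 (Utp20) and -0.15 (Wdr43). No test was made between genes with and without the motif. Myc itself read 11.62, 11.71, 11.91 and 11.83 in controls 1 to 4 and 11.50, 12.09, 12.12 and 11.98 on KO 1 to KO 4, so its groups overlapped. Mycn, its relative, read 8.31 to 8.81 in controls and 7.59, 7.98, 7.46 and 7.75 on KO 1 to KO 4, lower on every KO array by 0.92 on average (limma adjusted p 0.226, which does not pass the threshold of 0.05).

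The comparison of KO with control asks what the loss of Msi2 does to LSK cells. Across the assembly genes, 32 of 42 were higher in KO and 10 lower (76.2% higher), where 50.4% of all genes were higher, with a median log2 difference of 0.11 against 0.0022 over all genes. The differences were small: they ran from -0.23 (Ncl) to 0.51 (Bop1), and 41 of 42 were under 0.5 in size. The count changed with KO 3: without it 20 of 42 genes were higher and the median was -0.017. In bulk RNA, more cells with high nucleolar activity and more such RNA per cell cannot be told apart.

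None of the 42 genes passed limma's adjusted threshold of 0.05, as none of the 10720 genes did (0%), and their adjusted p ran from 0.368 to 0.993. At an unadjusted p under 0.05 limma gave 4 of 42 (9.52%), Utp20, Bop1, Rrp9 and Nop2, all higher, where 11.4% of all genes reached it and 5.74% were higher with it. The count was 0 without control 4, 2 without control 3 and 1 without KO 3. All 4 KO arrays lay above all controls for Utp20, Nop10 and Ubtf (7.14% of the 42), while 3.63% of all genes did so. None of the 42 lay below, where 3.48% of all genes did, so that the share without overlap was close to the 7.11% of all genes. Leaving out a KO array cannot undo such a separation, so Utp20, Nop10 and Ubtf were bound to stay above all controls without KO 3. No further gene of the 42 joined them (5.3% of all genes were above). Without KO 3 Ncl was below all controls (5.42% of all genes). This made 4 of 42 in all, where 10.7% of all genes did not overlap. The 95% intervals of all 42 genes lay within 1 of 0, so a 2-fold difference lay outside every interval.

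**Figure D1:**
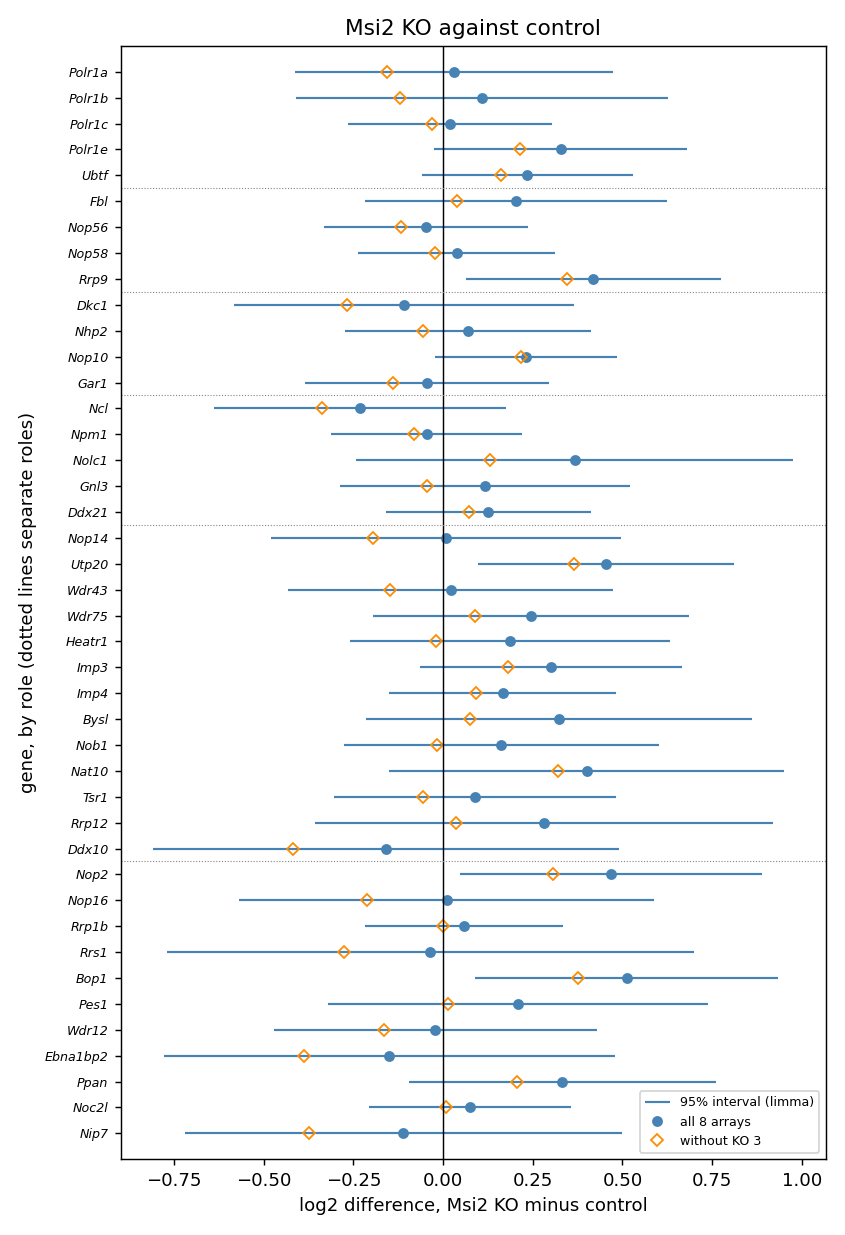
Log2 difference between KO and control for each of 42 genes (x axis), grouped by role (y axis); circles use all 8 arrays with the limma 95% interval as a line, and open diamonds leave out KO 3. All 42 diamonds lie left of their circles, and 20 of 42 are above 0.

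On KO 3 the assembly genes, chosen with earlier results of these data known, were high together. All 42 lay above every control on that array, against 31.7% of all genes, and for 41 of 42 (97.6%) it was the highest of the 8 arrays, against 23.1% of all genes. Nat10, a cytidine acetyltransferase of rRNA, was the exception: it read 8.78 on KO 1 and 8.70 on KO 3. The size ran from 0.059 above the control mean (Npm1) to 1.08 (Nolc1), with a median of 0.62. On the other KO arrays the medians were -0.062 (KO 1), -0.039 (KO 2) and 0.051 (KO 4), and the controls lay between -0.094 and 0.047.

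The 4 KO arrays had the same order by rising median of the 42 genes (KO 1, KO 2, KO 4, KO 3) as by falling Msi2 signal. These medians of KO 1, KO 2 and KO 4 lay within the range of the controls or less than 0.01 above it. By role, only small and large subunit assembly had this order. In the RNA polymerase I, box C/D, H/ACA and scaffold roles KO 2 had the lowest median of the KO arrays. The 93 other ribosome assembly genes did not follow the order either, at -0.012, -0.057, 0.052 and 0.41 on KO 1, KO 2, KO 4 and KO 3. Medians of erythroid markers (0.43, 1.12, 1.44 and 2.46) and of mast cell and basophil genes (0.14, 0.66, 1.73 and 2.00) rose in that order too. Those of macrophage genes and of the LSK gate did not. Xist was below 8 on KO 1 and KO 2 and above it on KO 4 and KO 3. What underlies the order was not tested. KO 3 also read low for most listed genes of the LSK gate and stem cells, with a median of -1.68 against -0.10 to 0.14 on the other KO arrays. Kit, whose protein is part of the gate, was not low there, at 9.02 against 8.39 to 9.16 in controls. It was the only 1 of the 8 measured genes above its control mean on KO 3. Hlf, a stem cell transcription factor, read 7.07 there and 9.77 to 10.22 on all other arrays. KO 3 read high for erythroid markers, with a median of 2.46 over 10 measured of 14 genes against 0.43 to 1.44 on the other KO arrays and -0.47 to 0.58 in controls. Alas2 and Hba-a1, of heme and hemoglobin synthesis, were listed at 0. The medians of 6 measured of 11 macrophage genes were 0.19 on KO 3, 1.21 to 1.35 on the other KO arrays and -1.64 to 0.75 in controls. Those of 5 measured mast cell and basophil genes were 2.00 on KO 3, 0.14 to 1.73 on the other KO arrays and -0.68 to 0.67 in controls. The 11 measured of 12 proliferation genes stood at a median of 0.024 on KO 3. What part these cell types, or the quality values of this array, have in the assembly genes' level was not tested.

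**Figure D2:**
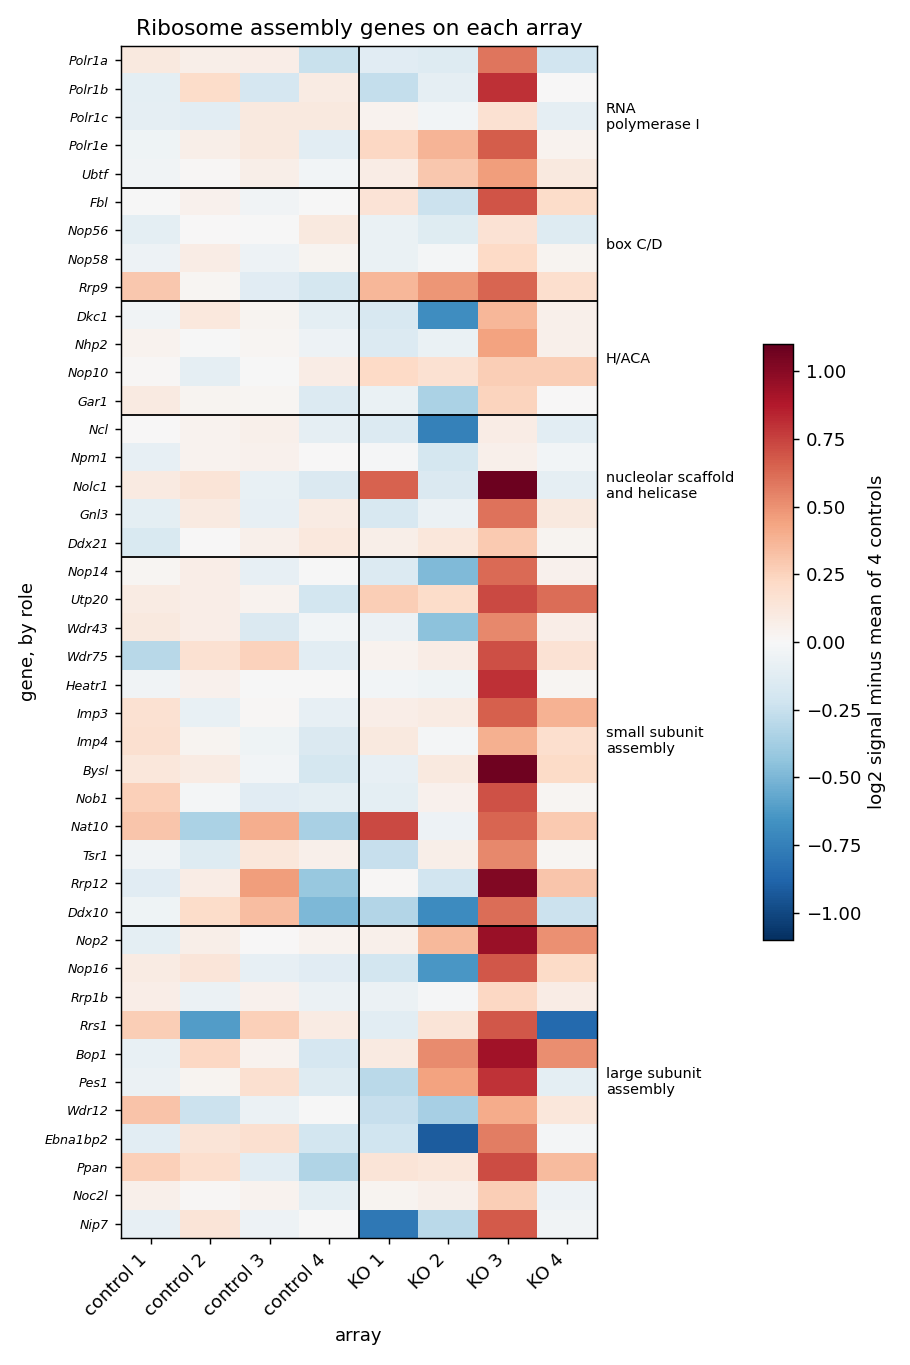
Log2 signal minus the mean of the 4 controls for 42 genes (rows, by role) on each of the 8 arrays (columns); red is above and blue below the control mean. The KO 3 column is above the control mean for all 42 genes, and KO 2 holds the lowest value of 12 genes, among them Ncl, Dkc1 and Ebna1bp2.

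The height on KO 3 was seen in other probe sets too. Of the 35 probe sets of these genes that were not used to represent them, 24 (68.6%) had their highest value on KO 3, where 20.1% of all probe sets did. It was greater for dimmer probe sets: the median was 0.72 for 15 genes with a control mean below 9 (0.64 to 1.07), 0.55 for 18 genes between 9 and 11, and 0.24 for 9 genes at 11 or above. Over all genes the same brightness classes had medians of 0.013, 0.040 and 0.015. There, genes above and below the control mean offset each other, so these medians do not show how large the deviations were. The part of probe set brightness in these sizes was not tested.

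The spread between mice was wider in KO for these genes. The median SD over 4 arrays was 0.35 in KO and 0.12 in controls, and KO had the larger SD for 36 of 42 (85.7%), against 61.5% of all genes. Without KO 3 the median SD was 0.17, and KO had the larger SD for 25 of 42 (59.5%, against 51.0% of all genes). Among the controls, control 4 held the lowest value of the 8 arrays for 13 of 42 genes (31.0%), against 12.4% of all genes.

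RNA polymerase I makes the rRNA precursor. All 5 measured genes of this role were higher in KO, by a median of 0.11, and 2 of 5 without KO 3 (median -0.031). Ubtf, the factor that keeps ribosomal DNA open for the polymerase, read 9.76, 9.81, 9.86 and 9.77 in controls 1 to 4 and 9.88, 10.10, 10.26 and 9.91 on KO 1 to KO 4. Every KO array was above every control, but by little on KO 1, and the difference was 0.24 ± 0.13 (SE, n = 4 each, limma adjusted p 0.526), or 0.16 without KO 3. A second measured probe set of Ubtf differed by 0.012 with overlapping groups and its lowest value, 8.56, on KO 1. Polr1e, a peripheral subunit of the enzyme, read 7.45, 7.56, 7.60 and 7.38 in controls and 7.72, 7.87, 8.16 and 7.54 in KO. KO 4 lay inside the control range, so its groups overlapped, with a difference of 0.33 ± 0.16 (SE), or 0.21 without KO 3, and its other probe set gave 0.058. Polr1a, the catalytic subunit, read 9.46, 9.41, 9.43 and 9.10 in controls and 9.23, 9.21, 9.94 and 9.15 in KO: KO 3 alone was high, and the difference of 0.030 turned to -0.16 without it and to -0.053 without control 4. Polr1b, the other large catalytic subunit, had the same shape, at 7.33 to 7.72 in controls, 8.31 on KO 3 and 7.25 to 7.52 on the other KO arrays. Polr1c, which RNA polymerase III shares, differed by 0.019.

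Box C/D proteins carry the snoRNAs that guide ribose methylation. Fbl, the methyltransferase, read 11.44, 11.49, 11.41 and 11.44 in controls 1 to 4, a range of less than 0.1, and 11.60, 11.21, 12.14 and 11.65 on KO 1 to KO 4. KO 2 lay below and the other KO arrays above all controls, and the difference was 0.20 ± 0.19 (SE), or 0.040 without KO 3 and 0.35 without KO 2, with -0.014 on its other probe set. Rrp9, a protein of the snoRNP needed for the first cuts of the precursor, read 7.35, 7.07, 6.92 and 6.86 in controls and 7.42, 7.53, 7.69 and 7.24 in KO. Only KO 4 overlapped the controls, below control 1, and Rrp9 was 1.34-fold higher (0.42 ± 0.16, SE, limma adjusted p 0.392), or by 0.35 without KO 3. The core proteins Nop56 and Nop58 hardly differed. Nop56 read 11.82, 11.93, 11.93 and 12.04 in controls and 11.85, 11.80, 12.09 and 11.79 in KO, a difference of -0.048, and Nop58 differed by 0.038.

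H/ACA proteins form the pseudouridylation particle, which also stabilises telomerase RNA. Nop10, its smallest subunit, was the most even of the 42 genes across KO mice. It read 11.95, 11.84, 11.94 and 12.02 in controls and 12.16, 12.11, 12.21 and 12.21 on KO 1 to KO 4, all 4 above the controls. The difference of 0.23 ± 0.11 (SE, n = 4 each, limma adjusted p 0.475) was 0.22 without KO 3, and its other probe set gave 0.23, again with no overlap. Dkc1, the pseudouridine synthase, read 10.62, 10.78, 10.69 and 10.56 in controls and 10.49, 9.99, 11.03 and 10.72 in KO. KO 2 was low and KO 3 high, with a difference of -0.11 ± 0.21 (SE). Nhp2 differed by 0.069 and Gar1 by -0.044, so 2 of 4 genes were higher and 2 lower, with a median of 0.012 (-0.098 without KO 3, -0.0026 with each array centred on its median).

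Scaffold proteins and helicases of the nucleolus came next. Ncl, nucleolin, which binds nascent rRNA, read 12.63, 12.67, 12.69 and 12.54 in controls and 12.48, 11.89, 12.72 and 12.52 on KO 1 to KO 4. It was below all controls on KO 1, KO 2 and KO 4 and above them on KO 3, and the difference was -0.23 ± 0.18 (SE), or -0.34 without KO 3 (limma adjusted p 0.553 there) and -0.061 without KO 2. The mean of its 5 probe sets gave -0.098. Npm1, nucleophosmin, a histone and ribosome chaperone mutated in myeloid leukaemia, read 12.66, 12.79, 12.80 and 12.76 in controls and 12.74, 12.56, 12.81 and 12.73 in KO. It differed by -0.046 ± 0.12 (SE), with a 95% interval of -0.31 to 0.22. Nolc1, a chaperone of snoRNPs, had the widest spread in KO of this role: it read 10.38, 10.42, 10.19 and 10.11 in controls and 10.92, 10.12, 11.36 and 10.18 in KO. KO 1 and KO 3 lay above all controls while KO 2 and KO 4 lay among them, and the difference of 0.37 ± 0.27 (SE) was 0.13 without KO 3. The nucleolar GTPase Gnl3 differed by 0.12 and the helicase Ddx21 by 0.13.

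Small subunit assembly had 12 of 13 genes higher in KO, by a median of 0.19. Without KO 3 it was 7 of 13, with a median of 0.036. Utp20, a large scaffold of the small-subunit processome, read 8.97, 8.95, 8.91 and 8.67 in controls 1 to 4 and 9.15, 9.08, 9.60 and 9.49 on KO 1 to KO 4. All KO arrays were above all controls, and Utp20 was 1.37-fold higher (0.46 ± 0.16, SE, n = 4 each, limma adjusted p 0.368). Without KO 3 it was higher by 0.37 and was the only 1 of the 42 genes with an unadjusted p under 0.05 (limma adjusted p 0.478), where 10.2% of all genes reached it. Ddx10, a helicase and the only lower gene of the role, read 9.02, 9.26, 9.41 and 8.57 in controls and 8.74, 8.37, 9.68 and 8.83 in KO. Its groups overlapped widely, with a difference of -0.16 ± 0.29 (SE).

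Of the other small-subunit genes, all but Nat10 had their highest value on KO 3. Heatr1, which links the processome to transcription, read 8.59 to 8.69 in controls, 9.44 on KO 3 and 8.59 to 8.66 on the other KO arrays, so that only KO 3 left the control range by more than 0.1. Bysl, needed for export of the subunit, was 1.07 above the control mean on KO 3 and -0.089 to 0.21 from it elsewhere in KO. Rrp12, an assembly and export factor, was 1.02 above on KO 3. Imp3 and Imp4, which help the guide snoRNA pair with the precursor, differed by 0.30 and 0.17 (0.18 and 0.091 without KO 3), and Nob1, the nuclease of the last cut, by 0.16. Nat10 differed by 0.40 ± 0.24 (SE), or 0.32 without KO 3, and Wdr75, Tsr1, Wdr43 and Nop14 by 0.24, 0.089, 0.021 and 0.0085.

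**Figure D3:**
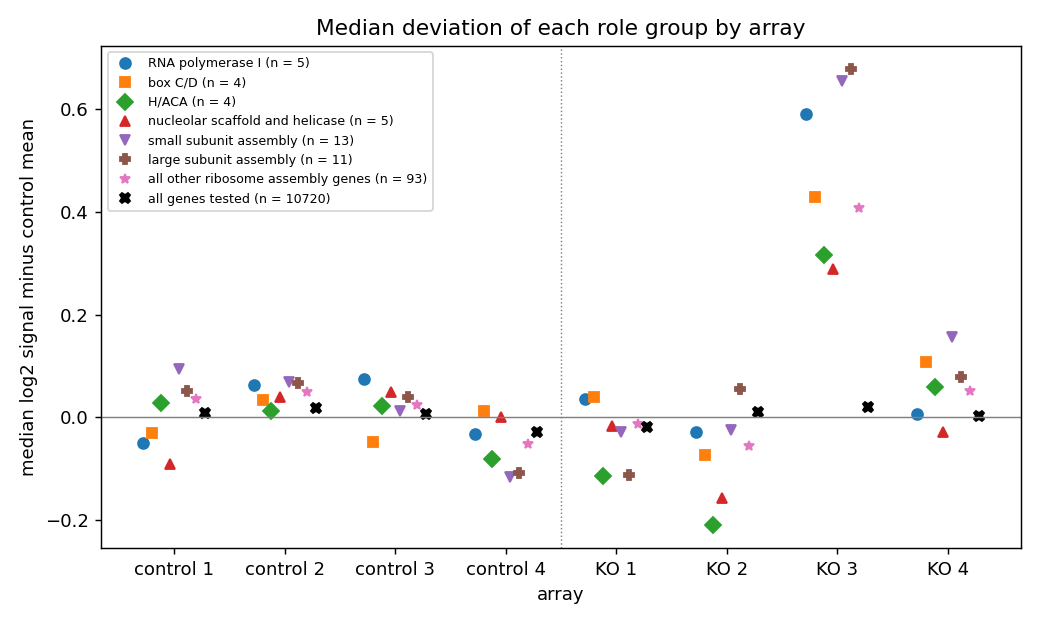
Median log2 signal minus the control mean (y axis) for 6 roles, for 93 other ribosome assembly genes and for all 10720 genes on each array (x axis). On KO 3 the 6 roles stand between 0.29 and 0.68 and all genes at 0.020, while on the other KO arrays the roles lie between -0.21 and 0.16.

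Large subunit assembly had 7 of 11 measured genes higher in KO, with a median of 0.058 (6 of 11 and 0.00086 without KO 3). Bop1, which with Pes1 and Wdr12 forms the complex that processes large-subunit rRNA, read 7.84, 8.14, 7.96 and 7.73 in controls and 8.01, 8.44, 8.84 and 8.42 on KO 1 to KO 4. KO 1 alone overlapped the controls, and Bop1 was 1.43-fold higher (0.51 ± 0.19, SE, limma adjusted p 0.386), or by 0.38 without KO 3. Its partner Pes1 was at 0.21 ± 0.23 (SE) and at 0.014 without KO 3, and Wdr12 at -0.022. The differences between the partners were not tested. Nop2, an rRNA methyltransferase, read 8.18, 8.35, 8.29 and 8.32 in controls and 8.34, 8.64, 9.24 and 8.79 in KO. KO 1 overlapped the controls and the other 3 were above them, at 0.47 ± 0.19 (SE) and 0.31 without KO 3.

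Ebna1bp2, a nucleolar partner in early large-subunit particles, read 10.62, 10.87, 10.91 and 10.54 in controls and 10.52, 9.81, 11.30 and 10.71 in KO. KO 2 was the lowest and KO 3 the highest array, with a difference of -0.15 ± 0.28 (SE). Nip7 had a similar spread, at 9.57 to 9.80 in controls, 8.87 on KO 1 and 10.33 on KO 3, and Rrs1 differed by -0.035 with the lowest value, 9.86, on KO 4. Ppan differed by 0.33, Noc2l by 0.074, Rrp1b by 0.058 and Nop16 by 0.010.

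KO 2 was the array on which 12 of the 42 genes (28.6%) had their lowest value, against 13.3% of all genes. They were Ncl, Npm1, Fbl, Dkc1, Gar1, Nop14, Wdr43, Heatr1, Ddx10, Nop16, Wdr12 and Ebna1bp2. Ncl, Dkc1 and Ebna1bp2 stood 0.74, 0.68 and 0.92 below the control mean there, and Bop1, Rrp9 and Polr1e 0.52, 0.48 and 0.37 above it. KO 2 thus had both high and low genes. Without KO 2 the differences of Dkc1, Npm1, Ddx10 and Ebna1bp2 turned to 0.081, 0.0045, 0.018 and 0.11.

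Probe sets of the same gene did not always point the same way. Of 77 measured probe sets of the 42 genes, 57 were higher and 20 lower in KO. In limma 5 had an unadjusted p under 0.05 (9.72% of all probe sets did) and 0 passed the adjusted threshold. The 5 were those of Utp20, Bop1, Rrp9 and Nop2, which were higher, and the dimmer one of Wdr12, which was lower. Of 27 genes with more than 1 measured probe set, 16 had all of them on one side and 11 on both sides. For Dkc1 the 3 probe sets gave -0.11, -0.0033 and 0.34, and KO 2 was low, at 9.99, on the first and high, at 10.52, on the last. For Heatr1 they gave 0.19, -0.19 and 0.41, and the second placed KO 3 inside the control range. For Wdr12 the dimmer probe set gave -0.68 ± 0.22 (SE) and the brighter one -0.022.

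**Figure D4:**
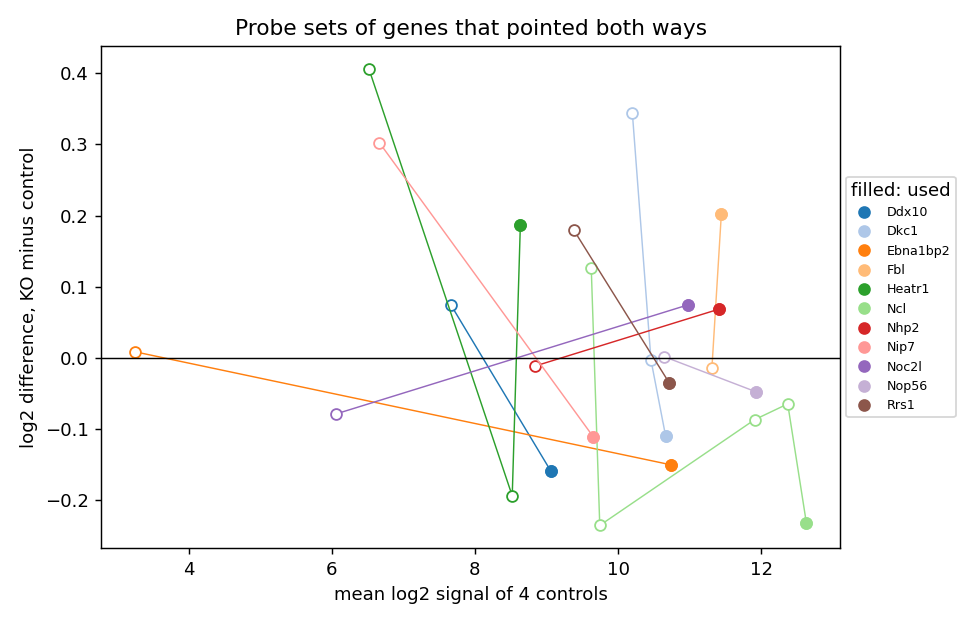
Mean log2 signal in controls (x axis) and log2 difference between KO and control (y axis) for the probe sets of 11 genes that had differences on both sides of 0; filled circles are the probe sets used, and lines join probe sets of a gene. The used probe set of Dkc1 is at -0.11 and its dimmest at 0.34.

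Of 94 further ribosome assembly genes chosen by function, 93 were measured and 0 passed limma's threshold. 62 were higher and 31 lower in KO, with a median of 0.080, or 46 of 93 and -0.00097 without KO 3. At an unadjusted p under 0.05 there were 6 higher and 2 lower, against 5.74% and 5.66% of all genes. The genes with the smallest p were Utp4, of the small-subunit processome (0.58 ± 0.16, SE, limma adjusted p 0.287), and Nol9, a kinase that acts on large-subunit rRNA (0.72 ± 0.21, SE, adjusted p 0.295). Utp4 read 8.09 to 8.48 in controls and 8.60 to 9.18 in KO, and Nol9 7.57 to 8.23 in controls and 8.26 to 8.94 in KO, so neither overlapped. Of the polymerase I genes, Taf1b, a promoter selectivity factor, differed by -0.54 ± 0.20 (SE) and Polr1d, a shared subunit, by 0.38 ± 0.16. Riok2, a kinase of late small-subunit assembly, differed by -0.47, the helicase Ddx55 by 0.59, and Naf1 and Ruvbl2, which help build snoRNPs, by 0.44 and 0.19.

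On KO 3 these 93 genes had a median of 0.41 and 54 of them (58.1%) had their highest value there. By class this held for 26 of 36 small-subunit, 20 of 39 large-subunit, 5 of 8 snoRNP and 3 of 10 RNA polymerase I genes, whose medians were 0.42, 0.42, 0.35 and 0.088. Among lists chosen after the data were seen, this held for 48 of 76 mitochondrial ribosomal proteins (63.2%), 9 of 20 subunits of RNA polymerases II and III, and 10 of 42 cytosolic ribosomal proteins (23.8%). More genes lay above all controls on KO 3: 67.7% of the 93 genes and 77.6% of mitochondrial ribosomal proteins. It was 60% of the polymerase II and III subunits and 54.8% of cytosolic ribosomal proteins, against 31.7% of all genes. Cytosolic ribosomal proteins, the products that assembly uses, had medians of 0.038, 0.041, 0.094 and 0.12 on KO 1 to KO 4. No test was made between these lists.

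**Figure D5:**
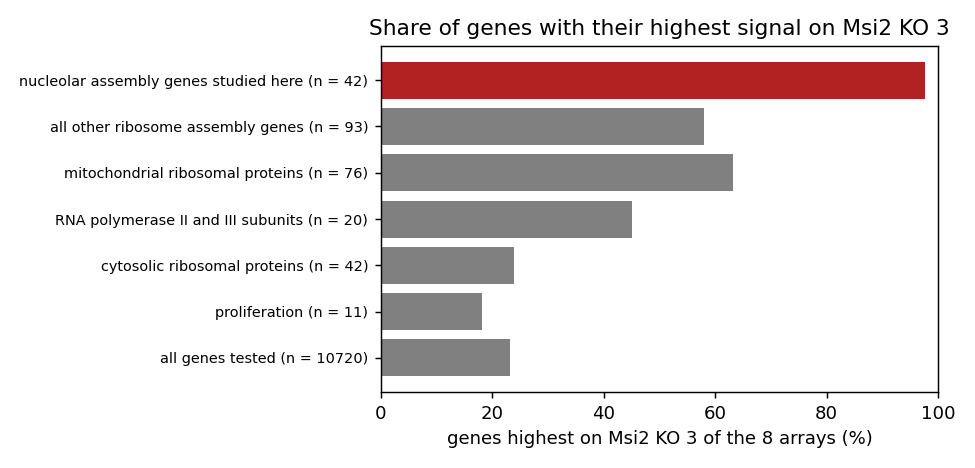
Percent of genes whose highest signal of the 8 arrays was on KO 3 (x axis, from 0), for the 42 nucleolar assembly genes (red), for comparison lists (grey) and for all genes. The share is 97.6% for the 42 genes, 58.1% for the other assembly genes and 23.1% for all genes.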

How the data were processed

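The table holds 1 deposited log2 signal for each probe set and array (8 arrays), made by the authors with RMA, per the submitters' processing notes, version not stated there. RMA as a method corrects background, quantile-normalizes and summarises probes. The step that set probe sets to 0 is not stated either. Of 45101 probe sets, 20664 (45.8%) were 0 on all arrays and were left out. Probe sets were named through the platform annotation and RefSeq gene IDs (34958 with 1 name, 932 with several, 9211 with none). The brightest named probe set stood for a gene, which gave 10720 genes. KO and control were compared with limma 3.58.1 in R 4.3.3 (lmFit, eBayes, two-sided, Benjamini-Hochberg over all genes, threshold 0.05), and 24404 probe sets were fitted likewise. Lists are described by counts and medians without a test.

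The genes and lists were chosen with earlier results of these data known. Values on every array are given for the gene with the smallest p per role and direction, for genes whose groups did not overlap, and for Ncl, Npm1, Fbl, Dkc1, Polr1a and Ubtf. Nop2 and others were named after their values were seen. The design text names 4 mice per group, and p-values measure the spread between arrays. The number of arrays limits the precision. In a simulation of this comparison with 10720 genes and 200 changed, limma called 0 of the changed genes when they differed by 0.5 (log2), 119 (59.5%) for 1 and 189 (94.5%) for 2. Alternatives were other normalizations, probe set rules, variance models, array weights, a replicate block, Xist as a covariate, and leaving out each array.

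Same-numbered control and KO arrays did not deviate together (correlations of 0.14, -0.17, 0.075 and -0.021), so the numbers were not taken as pairs.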

Additional observations from a re-analysis of the deposited data

Results flagged for a closer look

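3 values stood far from the rest of their group of 4 arrays. Polr1a read 9.94 on KO 3, where the nearest KO array read 9.23. In the controls Polr1a read 9.10 on control 4, below the nearest at 9.41. Heatr1 read 9.44 on KO 3, with the nearest at 8.66. Chance flags about 1 in 20 groups, and 84 groups were examined.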

How the results depend on the processing

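Across 17 alternatives, 0 of the assembly genes passed limma's threshold, while over all genes 5 passed with Xist as a covariate and 1 without KO 1. Of 253 recomputed differences of 15 genes (those given on every array by rule, so without Nop2), 243 kept their sign and 10 turned. Polr1a was at -0.078 with array weights, Dkc1 at 0.077 with the mean of its probe sets, and Fbl at -0.014 and Nop56 at 0.0018 without probe sets shared between transcripts. Leaving out 1 array gave -0.16 to 0.11 for Polr1a, -0.27 to 0.081 for Dkc1, -0.080 to 0.0045 for Npm1, -0.42 to 0.018 for Ddx10 and -0.39 to 0.11 for Ebna1bp2. It gave 20 to 38 genes higher in KO, 0 to 4 at an unadjusted p under 0.05 (0 without control 4, 1 without KO 3, 2 without control 3), 3 to 5 whose groups did not overlap, and a median of -0.017 to 0.19 (0.19 without KO 1, 0.18 without KO 2). By role, it gave medians of -0.031 to 0.23 (RNA polymerase I), 0.0092 to 0.20 (box C/D), -0.098 to 0.099 (H/ACA), -0.044 to 0.15 (scaffold proteins) and 0.036 to 0.27 (small subunit), and -0.00097 to 0.14 for the other assembly genes. The RNA polymerase I median was 0.030 without genes below the median level, -0.018 with array weights and 0.21 with Xist. The box C/D median was 0.038, 0.072 and 0.17 in those settings, 0.066 with the mean of probe sets and 0.020 without shared probe sets, and the scaffold median was 0.047 with array weights. The cause of these moves was not tested. With the replicate block 0 genes passed, 32 of 42 were higher, 5 had an unadjusted p under 0.05 and the median stayed at 0.11, and the block changed no call.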
